A study of Mus musculus with 8 samples.

Results

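The transcripts of 9 transcription factors and cofactors of haematopoietic stem cell (HSC) identity, Mecom, Hlf, Meis1, Prdm16, Gata2, Erg, Runx1, Tal1 and Lmo2, were followed across normal and leukaemic bone marrow cells of mice. They were chosen by symbol among the 20207 genes of the files, all 9 were found, and all 9 were among the 12561 genes tested, which had a total above 1 RPKM (a read count scaled by transcript length and library size) over the 8 libraries. All 9 were called higher in LT stem cells than in KLS- progenitors, as were 25.5% of all genes tested. In ST stem cells 8 of the 9 were called higher, as were 21.2% of all genes, and Tal1 was higher without passing the test. Between CML and normal stem cells 1 of the 9, Prdm16, passed the test, where 2.34% of all genes were called. It was lower in CML, a call that 7 of 15 alternatives kept.

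The study asked how stem cells of chronic myelogenous leukaemia (CML) differ from normal HSCs. In the model described in the study's methods, CML-affected mice carry both a Tal1-tTA and a TRE-BCR-ABL1 transgene on an FVB/N background, so that withdrawal of doxycycline switches on the BCR-ABL1 oncogene in cells in which the control sequence of Tal1, itself 1 of the 9 genes, is active, and normal littermates carry Tal1-tTA alone. The labels give no genotype and name C57BL/6 as the strain of all 8 libraries, and the study also used healthy C57BL/6 mice of a younger and an older age elsewhere. For its RNA sequencing the paper names healthy littermates as the source of the normal cells, whereas the labels name another strain than the one above. This conflict over which mice gave the normal libraries, and whether these carry Tal1-tTA, was not settled here. A difference of strain or transgene between the groups thus cannot be told apart from diagnosis. Cells were sorted from bone marrow as LT (CD150+CD48-CD135-KLS+), ST (CD150-CD48-CD135-KLS+) and KLS- (cKit+Lineage-Sca-1-) cells. There were 2 libraries of LT-HSCs (LT-HSC 1 labelled 2 months and LT-HSC 2 labelled 6 months old), 2 of LT-CML stem cells (no age in the labels), and 1 each of ST-HSCs, ST-CML stem cells, normal KLS- cells and CML KLS- cells; the normal ST and KLS- mice were labelled 2 months old. Nothing says that the replicates came from separate mice, so the p-values measure the spread between libraries, which may be technical.

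HSCs keep themselves in the marrow for life while feeding every blood lineage, and a small group of transcription factors holds that state. Many of these factors bind the same enhancers together, with GATA, ETS, RUNX and basic helix-loop-helix proteins side by side, and several of them regulate each other. As cells leave the stem cell compartment some of the factors are shut off, whereas others stay on and work in the erythroid, megakaryocytic or mast cell lineages. In bulk samples, fewer cells that express a gene and less RNA in each cell cannot be told apart.

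The depth of the libraries was an estimated 17.8 to 23.9 M reads, a ratio of 1.34 between the deepest and the shallowest. The surface marker transcripts followed the gates in part. Slamf1, which encodes CD150, was 10.7 to 35.5 RPKM in the LT libraries and 1.11 and 2.87 RPKM in the ST libraries, and Ly6a, which encodes Sca-1, was 72.4 to 152 RPKM in the stem cell libraries and 8.16 and 11.7 RPKM in the KLS- libraries. Flt3, which encodes CD135, was highest in the ST libraries, at 61.6 and 71.6 RPKM, although they were gated as CD135-. Transcripts of other cell types were also present: the summed level of 10 neutrophil and granulocyte markers was 602 RPKM in LT-HSC 1, 4168 in LT-HSC 2, 321 in LT-CML 1, 3831 in LT-CML 2, 256 in ST-HSC and 2168 in ST-CML, against 13070 and 21230 in the KLS- libraries, and no marker of that list was at 0 in any library. In LT-HSC 2 the sum was led by S100a8, at 1802 RPKM, a gene of mature neutrophils, and in LT-CML 2 by Mpo, at 1291 RPKM, a gene of their precursors. LT-HSC 2 and LT-CML 2 thus stand apart from the other LT library of their group, as ST-CML does from ST-HSC, and results of the 9 members that rest on these libraries are given without them as well. LT-HSC 2 is also the library of the older age, so that age and library cannot be told apart. The defining T cell marker Cd3e was at or below 0.148 RPKM and Pax5, a defining B cell marker, at or below 0.0888 RPKM in every library. Summed marker levels in the stem cell libraries were 4.79 to 191 RPKM for monocytes and macrophages, 31.3 to 60.6 RPKM for B cells (mostly Cd79b, at 30.2 to 46.3 RPKM), 87.6 to 291 RPKM for T and NK cells (mostly Nkg7, at 85.7 to 290 RPKM) and 14.1 to 31.0 RPKM for endothelium and stroma. The summed level of 10 HSC markers was 463 to 811 RPKM in the stem cell libraries and 204 and 156 RPKM in normal and CML KLS- cells. In these KLS- cells most of it was Kit, at 78.4 and 88.2 RPKM, and Cd34, at 108 and 46.3 RPKM. The highest sum, in ST-HSC, was led by Cd34 at 261 RPKM.

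Mecom and Prdm16 encode related zinc finger proteins with a PR domain, and both are needed to maintain HSCs. Mecom lies on the minus strand of chromosome 3 (mm9, 29850221 to 30446930, GENCODE M1) and shares 81 exonic bases with the antisense gene Gm16722, whose reads cannot be separated because the counting is not stated to use strand. Its level was 22.7 and 25.5 RPKM in the LT-HSC libraries, 16.8 and 14.9 in the LT-CML libraries, 17.3 in ST-HSC and 19.5 in ST-CML. It was 0.503 RPKM in normal KLS- and 0.418 in CML KLS-, about 58 and 42 estimated reads. Every stem cell library was thus at least 29.7 times above both KLS- libraries, and no other member had so wide a gap.

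Prdm16 lies on the minus strand of chromosome 4 (mm9, 153690234 to 154010982). Its level was 3.97 and 4.95 RPKM in the LT-HSC libraries, 3.20 in ST-HSC, 1.72 and 1.39 in the LT-CML libraries and 1.83 in ST-CML. In the KLS- libraries it was 0.729 RPKM in normal and 0.0913 RPKM in CML cells, the latter about 14 estimated reads with a counting error of 26.7%. All 3 normal HSC libraries lay above all 3 CML stem cell libraries, and Prdm16 had the lowest level of the 9 genes in every library but normal KLS-, where Mecom was lower.

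The promoter sequences of these 2 genes and of Meis1 are shown because the first 2 genes are close relatives, of which Prdm16 alone passed the test in CML, and because the third holds motifs for other members. The sequences are the 250 bases before a transcript start, taken from RefSeq promoter windows (GRCm38.p6) and matched exactly to 1 place each in mm9, and no file gives the transcript start used in these cells. Capitals mark matches, on either strand, to GATAA (bound by GATA factors), TGTGGT (RUNX), TGACAG (MEIS) and GGAAGT (ETS). The first is the upstream of 2 Mecom windows (chr3:30408682-30408931, minus strand), which lies inside the annotated gene, the second the only Prdm16 window (chr4:154010983-154011232, minus strand), and the third the only Meis1 window (chr11:18918973-18919222, minus strand).
Mecom: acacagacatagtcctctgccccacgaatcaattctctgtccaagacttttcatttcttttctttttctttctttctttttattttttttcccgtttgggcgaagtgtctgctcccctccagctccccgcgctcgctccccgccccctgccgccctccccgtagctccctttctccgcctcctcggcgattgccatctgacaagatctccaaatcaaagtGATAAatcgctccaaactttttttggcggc
Prdm16: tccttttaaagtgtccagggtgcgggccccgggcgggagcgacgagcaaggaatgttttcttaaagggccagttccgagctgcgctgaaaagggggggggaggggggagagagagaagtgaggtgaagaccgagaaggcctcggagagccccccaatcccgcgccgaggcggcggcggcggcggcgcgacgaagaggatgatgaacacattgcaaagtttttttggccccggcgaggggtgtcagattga
Meis1: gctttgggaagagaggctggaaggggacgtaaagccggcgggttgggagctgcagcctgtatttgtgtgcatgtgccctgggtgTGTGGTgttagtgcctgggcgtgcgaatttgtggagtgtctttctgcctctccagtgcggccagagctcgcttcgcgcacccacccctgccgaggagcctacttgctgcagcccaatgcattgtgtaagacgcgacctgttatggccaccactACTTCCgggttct
Just after these starts, the Mecom and Prdm16 windows shared an unbroken run of 24 bases on the transcribed strand, at bases 27 to 50 after the Mecom start and 10 to 33 after the Prdm16 start. The Mecom window ends at base 50, so the run could be longer than 24 bases in the genome.
Shared run: gcgcatgtgcgaaggtgtccaaac
That run was found in 2 of 32851 windows of the RefSeq table, those of these 2 genes, and the longest run shared by any other pair of windows from different members was 14 bases.

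RefSeq windows from 250 bases before the start to 50 after it were found for 8 of the 9 members, 14 in all. GATAA was in 4 of the 14 windows (both Mecom windows, 1 of Tal1 and 1 of Erg) and in 25.4% of all windows. TGTGGT was in 2 of the 14 (Meis1 and the upstream Runx1 window, which held it 2 times) and in 16.8% of all windows. TGACAG was in 2 of the 14 and 19.2% of all, GGAAGT in 1 of the 14 and 23.8% of all, and the E-box CANNTG, bound by basic helix-loop-helix factors such as TAL1 and itself able to overlap the other motifs, in 8 of the 14 and 72.3% of all. The PAR bZIP motif TTACGTAA, of the kind that HLF binds, was in 0 of the 14 windows and in 0.1% of all. These are matches of letters, and binding was not measured.

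Hlf encodes a PAR bZIP factor that marks HSCs and is switched off early in commitment. It lies on the minus strand of chromosome 11 (mm9, 90197849 to 90252231). Its level was 33.1 and 57.7 RPKM in the LT-HSC libraries, 36.9 and 26.4 in the LT-CML libraries, 62.6 in ST-HSC and 67.0 in ST-CML, against 1.75 and 1.66 in normal and CML KLS- cells. Both ST libraries lay above all 4 LT libraries, and the KLS- libraries were close to each other and far below.

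Meis1 encodes a TALE homeodomain factor that works with HOX proteins. It also lies on the minus strand of chromosome 11 (mm9, 18780433 to 18918961) and shares 896 exonic bases with the antisense gene Gm16140, so part of its reads could belong to that gene. Its level was 166 and 139 RPKM in the LT-HSC libraries, 152 in ST-HSC, 132 and 105 in the LT-CML libraries and 121 in ST-CML, with 20.0 in normal KLS- and 9.93 in CML KLS-. The 3 CML stem cell libraries were all below the 3 normal ones, though the ranges nearly touched.

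Gata2 encodes a zinc finger factor of HSCs, mast cells and early megakaryocytic and erythroid progenitors, and lies on the plus strand of chromosome 6 (mm9, 88143885 to 88157024). Its level was 34.1 and 49.4 RPKM in the LT-HSC libraries, 38.1 and 40.9 in the LT-CML libraries, 15.6 in ST-HSC, 19.3 in ST-CML, 9.28 in normal KLS- and 4.52 in CML KLS-. The LT, ST and KLS- libraries formed 3 steps that did not overlap, as did those of Runx1 and Tal1. Of all genes tested, 12.9% had every LT library above both ST libraries. In 27.7% every stem cell library lay above both KLS- libraries, and the share of genes with both was not counted.

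Erg encodes an ETS factor of HSCs and endothelium, and lies on the minus strand of chromosome 16 (mm9, 95580776 to 95808200). Its level was 16.4 and 16.3 RPKM in the LT-HSC libraries, 19.9 in ST-HSC, 11.2 and 8.66 in the LT-CML libraries and 14.6 in ST-CML, with 7.0 and 5.38 in normal and CML KLS- cells. All CML stem cell libraries were below all normal HSC libraries, and the lowest stem cell library was 1.24 times above the highest KLS- library.

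Runx1 encodes the DNA-binding partner of CBFB and is needed for HSCs to arise in the embryo. It lies on the minus strand of chromosome 16 (mm9, 92601712 to 92826311), with 106 exonic bases shared with the antisense gene Gm16801. Its level was 12.6 and 13.3 RPKM in the LT-HSC libraries, 11.2 in each LT-CML library, 8.73 in ST-HSC, 7.22 in ST-CML, 6.30 in normal KLS- and 3.49 in CML KLS-. The LT libraries were all above the ST libraries, and the ST libraries above the KLS- libraries.

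Tal1 and Lmo2 encode 2 parts of 1 DNA-binding complex: TAL1 is a basic helix-loop-helix factor, and LMO2 is a LIM-domain bridge that joins it to GATA factors and LDB1. Tal1 (plus strand of chromosome 4, mm9, 114729031 to 114744360) was 6.06 and 8.70 RPKM in the LT-HSC libraries, 7.09 and 6.02 in the LT-CML libraries, 4.58 in ST-HSC, 4.68 in ST-CML, 2.69 in normal KLS- and 3.17 in CML KLS-. Lmo2 (plus strand of chromosome 2, mm9, 103798143 to 103822035) was 105 and 243 RPKM in the LT-HSC libraries, 127 and 78.7 in the LT-CML libraries, 116 in ST-HSC, 126 in ST-CML, 40.2 in normal KLS- and 26.7 in CML KLS-. The 2 LT-HSC libraries differed 2.31 times in Lmo2, the widest gap between replicates among the 9 genes, and the higher value was in LT-HSC 2.

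**Figure D1:**
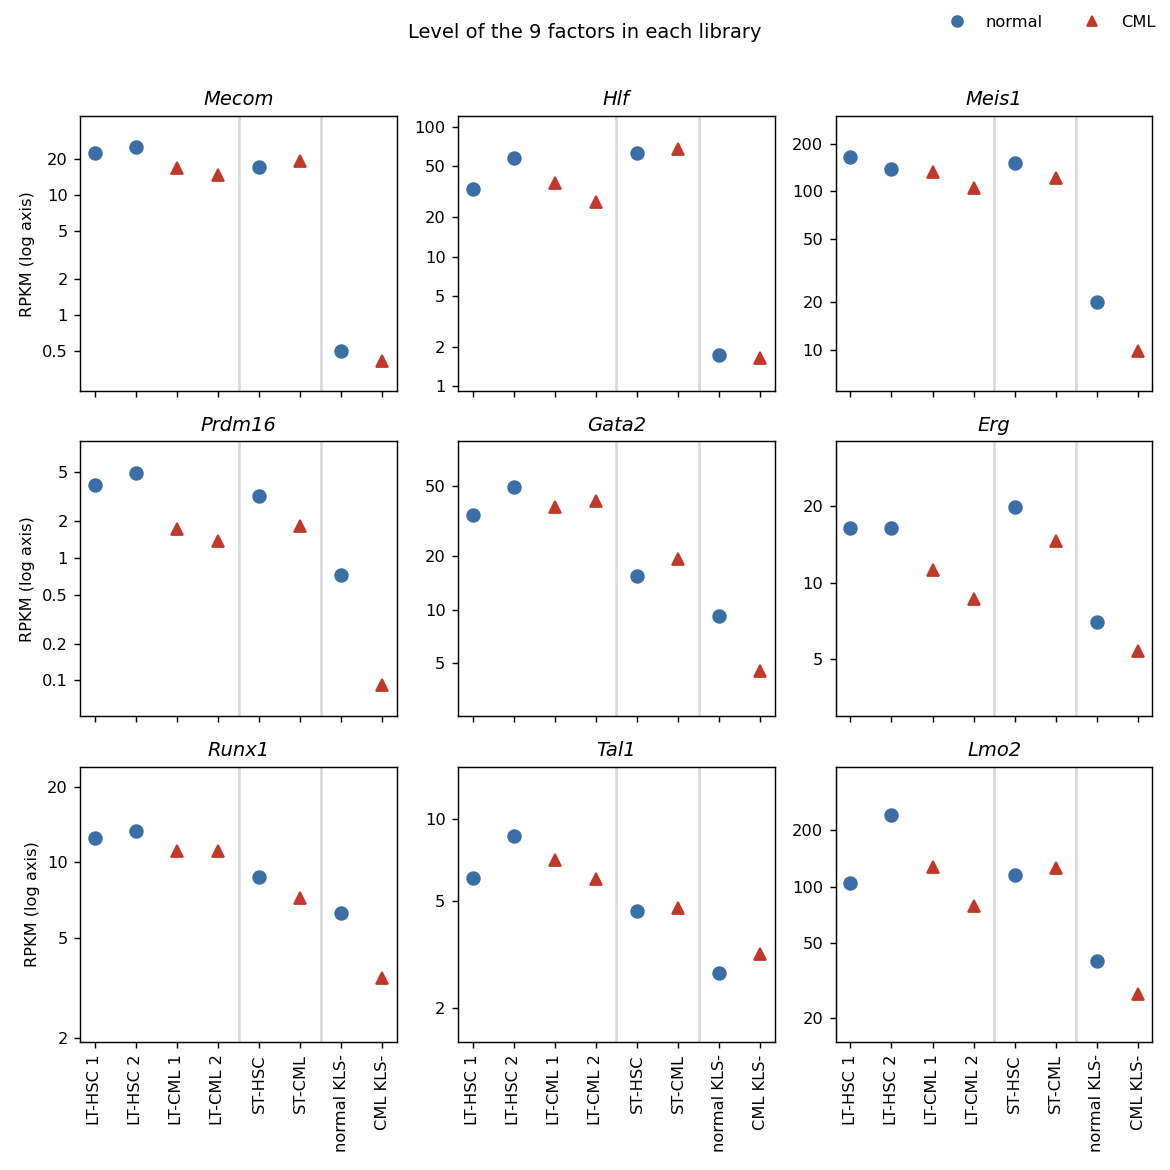
Level of each of the 9 genes in RPKM (log axis, with its own range in each panel) in the 8 libraries, 1 point per library, with circles for normal and triangles for CML cells and grey lines between the LT, ST and KLS- libraries. The KLS- points lie lowest in all 9 panels, the LT points of Gata2 lie above both ST points, and the Prdm16 triangles lie below the circles within each population.

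Because RPKM is a level per length, the members can also be ranked against each other. Over the 4 LT libraries, which hold both diagnoses, the mean was 138 ± 72.3 RPKM for Lmo2 and 135 ± 25.1 for Meis1. The spread is given as SD with n = 4 for all values of this ranking, and it includes any difference between normal and CML cells. Lmo2 and Meis1 did not differ beyond their spread, and Meis1 lay above Lmo2 in all LT libraries but LT-HSC 2. Gata2 followed at 40.6 ± 6.48 and Hlf at 38.5 ± 13.5, again within their spread, with Gata2 above Hlf in all LT libraries but LT-HSC 2. Mecom was next at 20.0 ± 4.94. Erg, at 13.2 ± 3.85, and Runx1, at 12.1 ± 1.09, lay within their spread of each other, with Erg above Runx1 in all LT libraries but LT-CML 2. Tal1, at 6.97 ± 1.26, and Prdm16, at 3.01 ± 1.73, closed the order. In the KLS- libraries Lmo2 and Meis1 still led, whereas Hlf and Mecom moved from the middle of the order to its low end, below Tal1.

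All 9 members rose in LT cells over KLS- progenitors. With diagnosis held fixed, the log2 fold change of RPKM + 1, on which the change of weakly expressed genes comes out too small, was 3.81 for Mecom (SE 0.18, adjusted p = 1.08e-05), 3.81 for Hlf (SE 0.24, adjusted p = 2.18e-05) and 3.15 for Meis1 (SE 0.17, adjusted p = 1.26e-05), by limma with Benjamini-Hochberg adjustment over 12561 genes. Gata2 followed at 2.45 (SE 0.24), Lmo2 at 1.92 (SE 0.33), Prdm16 at 1.44 (SE 0.17), Runx1 at 1.19 (SE 0.15), Tal1 at 1.01 (SE 0.17) and Erg at 0.94 (SE 0.15), with adjusted p values from 0.000129 to 0.00208. The background was broad: 25.5% of all genes tested were called higher in LT than in KLS- cells, and the median log2 fold change was 1.92 over the members and 0.07 over all genes. Upper-quartile scaling moved the median of all genes to 0.21 and the calls that were higher from 3207 of 5823 to 4222 of 6068, with all 9 members still called. As a ratio of mean RPKM, LT cells were 43.4 times above KLS- cells for Mecom and 22.6 times for Hlf. All 9 calls were kept under each of the 17 alternatives run, among them the fit without LT-HSC 2 and LT-CML 2, and all 9 genes were higher in every stem cell library than in both KLS- libraries, which was true of 27.7% of all genes.

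In ST cells against KLS- progenitors 8 of the 9 were called higher, against 21.2% of all genes. Under upper-quartile scaling the calls that were higher went from 2664 of 5021 to 3510 of 5285, and the median of all genes from 0.07 to 0.20. Hlf had the largest change of the 9, with a log2 fold change of 4.61 (SE 0.28, adjusted p = 3.22e-05), followed by Mecom at 3.73 (SE 0.21, adjusted p = 2.77e-05) and Meis1 at 3.17 (SE 0.20, adjusted p = 3.35e-05). Lmo2, at 1.85, Erg, at 1.34, Prdm16, at 1.33, Gata2, at 1.29, and Runx1, at 0.64, also passed, with adjusted p values from 0.000673 to 0.0179. Tal1 did not, with a log2 fold change of 0.52 (95% interval 0.07 to 0.97, adjusted p = 0.0636), and without LT-HSC 2 and LT-CML 2, which changes the spread shared by the fit, it passed with an adjusted p of 0.0239. Without ST-CML, 5 of the 9 were called, and Gata2, Runx1 and Lmo2 no longer passed, with adjusted p values of 0.0797, 0.132 and 0.0643. Gata2 and Runx1 also missed the threshold without CML KLS- (0.0690 and 0.197), and Runx1 did so without ST-HSC (0.0664).

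LT and ST stem cells differed in Gata2, which rose in LT cells with a log2 fold change of 1.17 (SE 0.24, adjusted p = 0.0292). It was the only one of the 9 called, where 2.74% of all genes were called higher in LT cells. The mean was 40.6 ± 6.48 RPKM in LT cells (SD, n = 4) and 17.5 RPKM in ST cells (15.6 and 19.3), a ratio of 2.33. Runx1 (log2 fold change 0.54, 95% interval 0.20 to 0.88, adjusted p = 0.0838) and Tal1 (0.49, interval 0.10 to 0.88, adjusted p = 0.156) were also higher in all 4 LT libraries than in both ST libraries without passing the test. Hlf went the other way, at -0.79 (interval -1.35 to -0.24, adjusted p = 0.112), with both ST libraries above every LT library. Groups that do not overlap in the first direction were found in 12.9% of all genes and in the second in 11.3%. For Mecom, Meis1, Prdm16 and Lmo2 the log2 fold change lay between -0.02 and 0.11, with intervals that reached from -0.69 to 0.82 for Lmo2 and from -0.42 to 0.37 for Meis1, and for Erg it was -0.39 (adjusted p = 0.2).

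Megakaryocyte markers moved with this comparison. The summed level of the list of 6 was 270 to 455 RPKM in the LT libraries and 32.8 and 43.5 RPKM in the ST libraries, 4 of its 5 tested genes were called higher in LT cells, and the part of such cells in the Gata2 difference was not tested. Mast cell and basophil markers summed to 2.60 to 12.4 RPKM in the LT libraries and to 15.3 and 57.7 RPKM in the ST libraries, and their part was not tested either. The sum of 4 multipotent progenitor markers was 8.45 to 49.3 RPKM in the LT libraries and 129 and 131 RPKM in the ST libraries. Of these, Cd48 was 41.8 and 45.2 RPKM in the ST libraries, although they were gated as CD48-. The part of such cells in the Gata2 and Hlf differences was not tested.

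The Gata2 call rested on single libraries. Its log2 fold change stayed between 0.85 and 1.48 over 17 alternatives, of which 11 kept the call. The adjusted p was 0.341 without ST-HSC, 0.0858 without ST-CML, 0.0661 without LT-CML 1, 0.0760 without LT-CML 2 and 0.0906 without LT-HSC 2 and LT-CML 2 together. Hlf passed, at -1.0 with an adjusted p of 0.0114, when LT-HSC 2 was left out, and at -0.87 with 0.0145 without LT-HSC 2 and LT-CML 2. In LT-HSC 2 Hlf was 1.74 times its level in LT-HSC 1, beside the higher sum of neutrophil markers in that library, and the part of those cells in this difference was not tested.

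**Figure D2:**
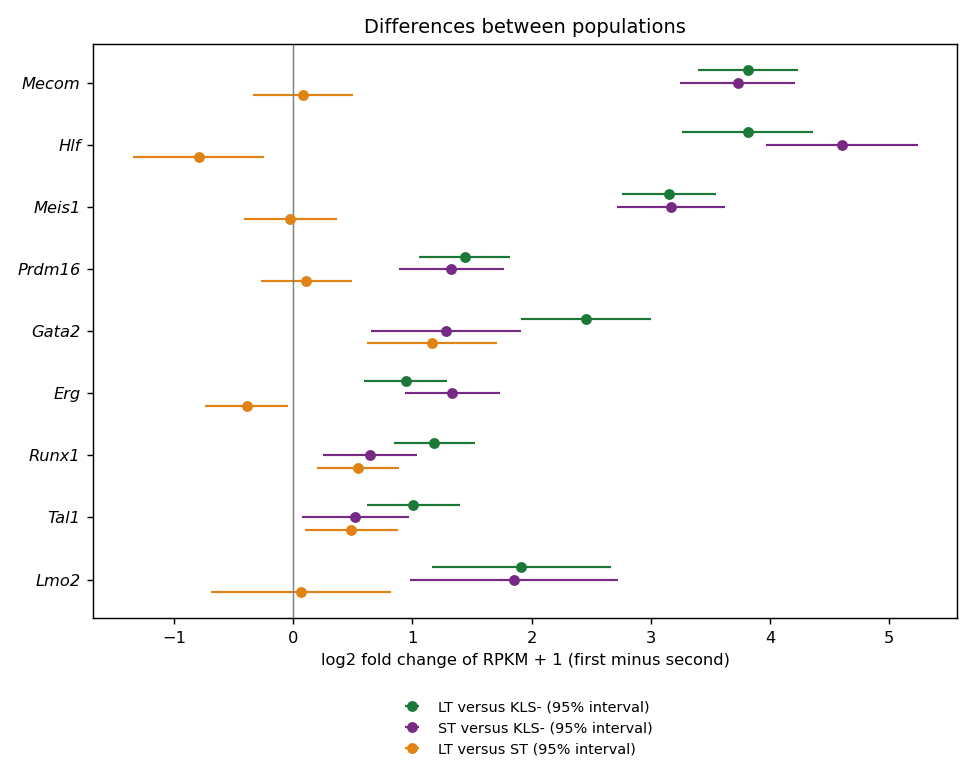
Log2 fold change of RPKM + 1 between populations for each of the 9 genes with 95% intervals from limma (8 libraries, diagnosis held fixed), with LT against KLS- in green, ST against KLS- in purple and LT against ST in orange. Mecom, Hlf and Meis1 lie farthest from 0 against KLS- cells, and between LT and ST cells Gata2, at 1.17, was the only one of the 9 that passed the test.

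CML stem cells had less Prdm16 than normal HSCs. Its mean was 4.04 ± 0.880 RPKM in the 3 normal HSC libraries and 1.64 ± 0.230 RPKM in the 3 CML stem cell libraries (SD, n = 3 each), a ratio of 2.46, and the log2 fold change was -0.92 (SE 0.17, adjusted p = 0.0399 by limma). It was the only one of the 9 members called, against 2.34% of all genes tested in either direction. Each group held 2 LT libraries and 1 ST library without a term for population, so the spread in this fit includes the difference between LT and ST cells. The other 8 members did not pass: Erg was at -0.59 (95% interval -1.05 to -0.13, adjusted p = 0.254), Meis1 at -0.35 (interval -0.67 to -0.03, adjusted p = 0.351), Lmo2 at -0.41, Mecom at -0.33, Hlf at -0.28, Runx1 at -0.21, Tal1 at -0.08 and Gata2 at 0.06 (interval -0.95 to 1.07). The log2 fold change was negative for 8 of the 9, with a median of -0.33 over the members and -0.04 over all genes. Every CML stem cell library was below every normal HSC library for Prdm16, Erg and Meis1, as for 11.4% of all genes.

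Among LT cells alone Prdm16 had a log2 fold change of -1.10 in LT-CML against LT-HSC (SE 0.19, adjusted p = 0.0417), from 4.46 ± 0.697 to 1.55 ± 0.235 RPKM (SD, n = 2 each), and was again the only member called, where 1.73% of all genes were. Erg was at -0.68 (interval -1.15 to -0.20, adjusted p = 0.216) and Mecom at -0.57 (interval -1.03 to -0.12, adjusted p = 0.286). Lmo2, at -0.67, had an interval of -1.60 to 0.26, beside the gap between its LT-HSC libraries. Meis1 was at -0.37 (interval -0.84 to 0.10), Hlf at -0.47 (interval -1.17 to 0.22), Runx1 at -0.20, Tal1 at -0.14 and Gata2 at -0.06. This comparison and the one above share the LT libraries and are not independent of each other.

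The Prdm16 call did not withstand the loss of most single libraries, whereas its direction was kept in each. In the comparison of stem cells the adjusted p was 0.160 without LT-HSC 1, 0.0942 without LT-HSC 2, 0.148 without LT-CML 1, 0.129 without LT-CML 2 and 0.0950 without ST-CML, with log2 fold changes between -0.97 and -0.79. Without LT-HSC 2 and LT-CML 2 together it was -0.72 with an adjusted p of 0.202, and 38 genes in all were called in place of 294. Among LT cells each of the 4 libraries, when left out, took the adjusted p to between 0.103 and 0.320. Over all alternatives the log2 fold change lay between -1.23 and -0.72 in the first comparison, where 7 of 15 kept the call, and between -1.46 and -0.96 in the second, where 4 of 12 did. Markers of other cells also differed with diagnosis. Among LT cells the sum of 9 erythroid markers was 1540 and 1516 RPKM in normal and 763 and 504 RPKM in CML libraries, of which Car2 alone made up 1494, 1405, 756 and 494 RPKM. Car2 was 785 RPKM in normal KLS- cells, below its level in normal HSCs. The sum of 4 multipotent progenitor markers, Flt3 and Cd48 among them, was 14.8 and 8.45 RPKM in normal and 28.9 and 49.3 RPKM in CML libraries. The sum of neutrophil markers was higher in LT-HSC 2, LT-CML 2 and ST-CML than in the other stem cell libraries. The part of any of these cells in the Prdm16 difference was not tested.

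The ratio of Prdm16 to its relative Mecom, both levels per length, was computed after the values had been seen and is given without a test. It was 0.175, 0.195 and 0.185 in LT-HSC 1, LT-HSC 2 and ST-HSC. It was 0.102, 0.0928 and 0.0938 in LT-CML 1, LT-CML 2 and ST-CML. The values within each group were thus close to each other, and the groups did not overlap. Prdm16 alone already kept these groups apart, so the ratio adds no separate support for its lower level in CML. How many other ratios of genes would keep them apart was not counted. In KLS- cells, where the level of Mecom was low, the ratio was 1.45 in normal and 0.219 in CML cells.

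For ST and KLS- cells there was 1 library of each diagnosis, so these differences have no replicate check. In ST cells Prdm16 was 1.75 times higher in normal than in CML cells (95% interval 1.51 to 2.03 from estimated reads by the exact binomial method, which covers counting error only), Erg 1.36 times and Meis1 1.25 times, whereas Mecom, Hlf, Gata2 and Lmo2 were lower in normal than in CML cells, at ratios of 0.890, 0.934, 0.806 and 0.921. The ratio of Runx1 was 1.21 (1.11 to 1.32), and that of Tal1, at 0.978, had an interval that held 1. In KLS- cells the ratio was 7.98 for Prdm16 (interval 4.58 to 15.0), 2.05 for Gata2 (1.77 to 2.38), 2.01 for Meis1 (1.83 to 2.22), 1.81 for Runx1 (1.61 to 2.03), 1.5 for Lmo2 (1.38 to 1.64) and 1.30 for Erg (1.13 to 1.51). Tal1 was at 0.85 (0.706 to 1.02), the only member whose KLS- level was higher in CML than in normal cells, and the intervals of Mecom and Hlf also held 1. On the log2(RPKM + 1) scale 0 of the 9 members were at least 2-fold lower in CML, against 2.01% of all genes in ST cells and 1.39% in KLS- cells; the nearest were Meis1 at -0.94, Gata2 at -0.90 and Runx1 at -0.70, all in KLS- cells.

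The CML difference itself was compared between populations. For KLS- against LT cells 0 of the 9 members were called by limma, with 0 at an unadjusted p under 0.05, and 0.0239% of all genes tested (3 genes) were called. For ST against LT cells the counts were the same, with 0 of 9 called, 0 at an unadjusted p under 0.05, and 0.0239% of all genes. The largest of these differences were -0.84 for Gata2 in KLS- minus LT cells (95% interval -1.75 to 0.07) and 0.79 for Lmo2 in ST minus LT cells (interval -0.82 to 2.40), and the intervals were too wide to tell populations apart or to call them alike. In KLS- minus LT cells the others were Meis1 at -0.57, Runx1 at -0.50, Mecom at 0.49, Prdm16 at 0.43, Hlf at 0.42, Erg at 0.35, Tal1 at 0.31 and Lmo2 at 0.10. The sign for Prdm16 turned over the 11 alternatives (-0.65 to 0.56), as did that for Lmo2 (-0.50 to 0.70). In RPKM, Prdm16 went from 0.729 in normal to 0.0913 in CML KLS- cells, and from a mean of 4.46 to 1.55 in LT cells. Its positive value thus does not show a smaller CML difference in KLS- cells. In ST minus LT cells they were Mecom at 0.73, Hlf at 0.57, Prdm16 at 0.52, Gata2 at 0.35, Erg at 0.25, Tal1 at 0.16, Meis1 at 0.05 and Runx1 at -0.04.

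**Figure D3:**
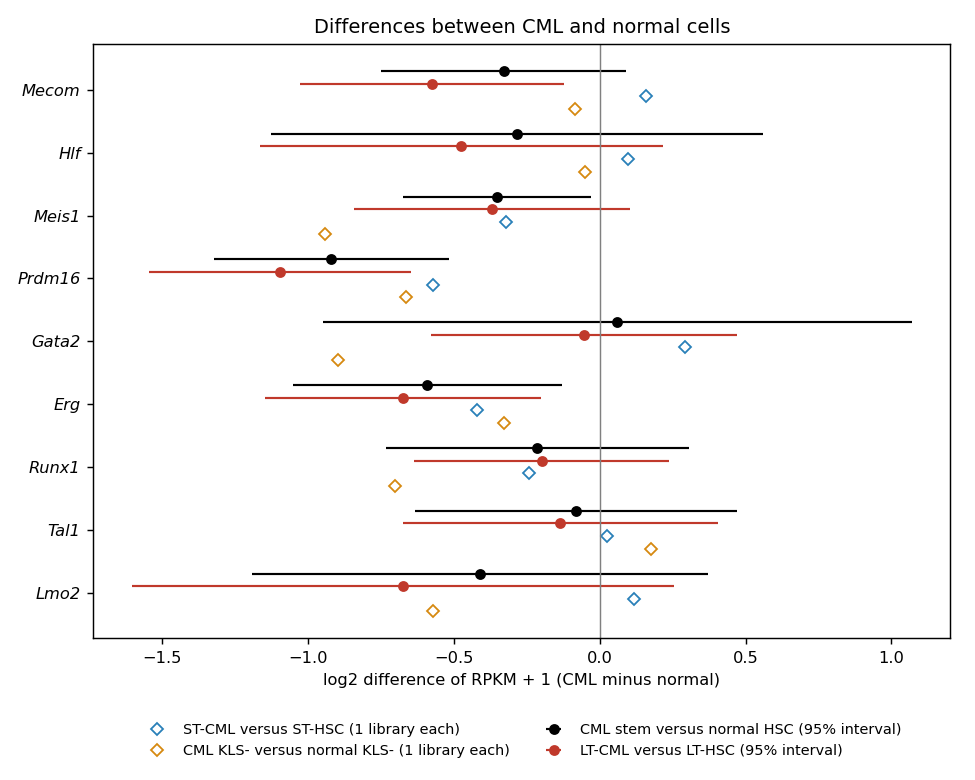
Log2 difference of RPKM + 1 between CML and normal cells for each of the 9 genes, with 95% intervals from limma for the 3 against 3 stem cell libraries (black) and the 2 against 2 LT libraries (red), and open diamonds for ST and KLS- cells, which had 1 library for each diagnosis. The Prdm16 intervals are the only ones that belong to a call, at -0.92 and -1.10, and the ST diamonds of Mecom, Hlf, Gata2, Tal1 and Lmo2 lie above 0.

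Over the 8 libraries the levels of the 9 members varied together, with Pearson's r of log2(RPKM + 1) between 0.590 and 0.981 over 36 pairs (median 0.860). The libraries share their populations, and when the 2 KLS- libraries were left out r ranged from -0.588 to 0.915 over 6 libraries (median 0.388), with 7 pairs below 0. Gata2 stayed close to Tal1 (r = 0.915) and Runx1 (r = 0.871), the 3 genes whose LT libraries all lay above both ST libraries, and Mecom to Prdm16 (r = 0.859). Hlf and Gata2 ran against each other (r = -0.588). These values are descriptions over few libraries and carry no test.

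**Figure D4:**
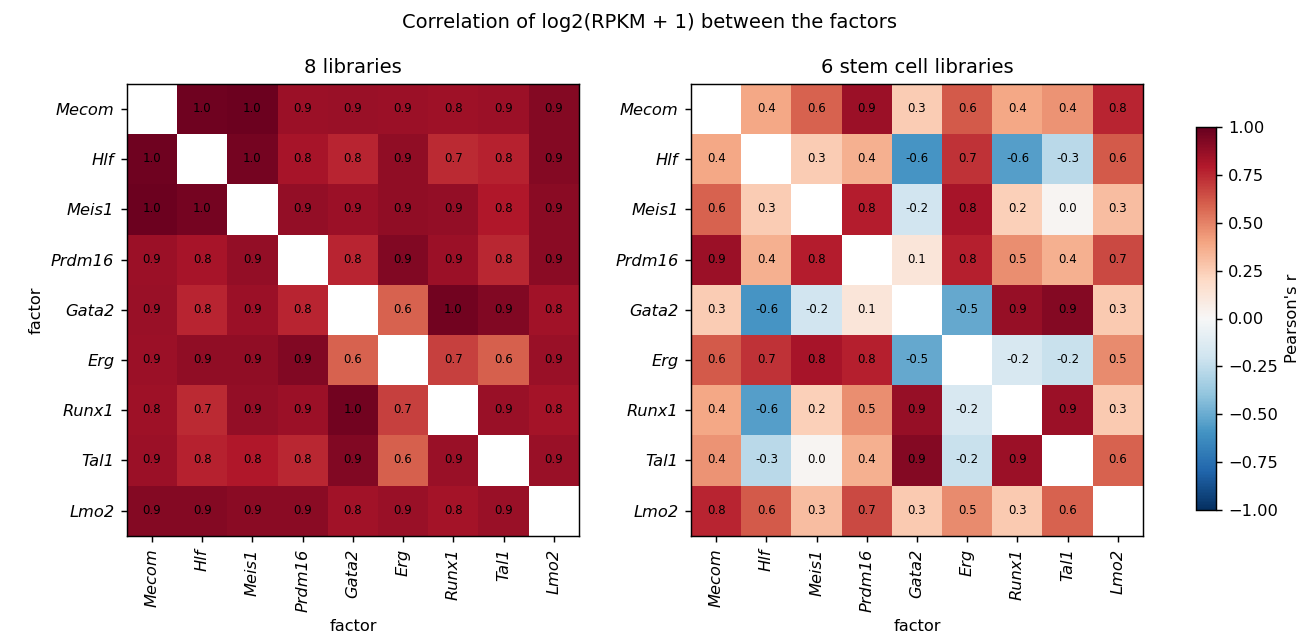
Pearson's r of log2(RPKM + 1) for each pair of the 9 genes, over all 8 libraries (left) and over the 6 stem cell libraries (right), with red for positive and blue for negative r and the diagonal left blank. All 36 pairs are positive on the left, and 7 are negative on the right, the lowest being Hlf with Gata2 at -0.588.

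Among the 6344 genes with a mean of at least 5 RPKM, those with the pattern most like each member over the 8 libraries were named by r. For Mecom they were Fggy, Plp2 and Krt18 (r = 0.998, 0.997 and 0.996), for Hlf Irf2, Crispld1 and Nceh1 (0.995, 0.995 and 0.994), and for Meis1 Cbfa2t3, Rab37 and Gimap5 (0.997, 0.996 and 0.994). For Prdm16 they were Inpp4a, Foxn3 and Plcb2 (0.989, 0.986 and 0.979), for Gata2 Fbxo9, Diap1 and BC037112 (0.988, 0.979 and 0.978), and for Erg Igtp, Nfic and Irgm2 (0.992, 0.989 and 0.989). For Runx1 they were Ccnd2, Uhrf2 and Strn3 (0.994, 0.989 and 0.975), for Tal1 Serpinb6a, Ndfip2 and Diap1 (0.986, 0.979 and 0.974), and for Lmo2 Ddx17, Pcbd1 and Appbp2 (0.989, 0.985 and 0.984). Of these, Cbfa2t3 was also among the listed partners.

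Over all genes tested, 25.5% were called higher and 20.8% lower in LT than in KLS- cells, 21.2% were called higher in ST than in KLS- cells, and 2.34% were called in either direction between CML stem cells and normal HSCs, and the counts of the following lists stand beside these shares. Of 22 genes that encode complex partners of the members, 13 rose in LT over KLS- cells and the other 9 did not pass, and 10 rose in ST over KLS- cells (4 without ST-CML) and the other 12 did not pass. The median log2 fold change of the list was 0.43 and 0.42, beside 0.07 over all genes in each comparison. Cbfa2t3, which encodes a corepressor of the TAL1 complex, rose in both, with log2 fold changes of 1.32 (SE 0.14, adjusted p = 0.000195) and 1.42 (SE 0.16, adjusted p = 0.000349). Fli1, an ETS factor that binds with the other members, rose in LT over ST cells (0.52, SE 0.11, adjusted p = 0.0364, and 0.321 without ST-CML) and over KLS- cells (0.94, SE 0.11). Its level was at least 76.7 RPKM in each of the 4 LT libraries, 56.7 and 63.1 RPKM in the ST libraries and 40.6 and 48.5 RPKM in the KLS- libraries, 3 steps that did not overlap. The share of all genes with 3 such steps was not counted. Between CML stem cells and normal HSCs 1 partner was called, Cbfa2t2, a corepressor of the ETO family and relative of Cbfa2t3, which was 15.6, 10.8 and 16.3 RPKM in LT-HSC 1, LT-HSC 2 and ST-HSC and 5.52, 4.83 and 5.52 in LT-CML 1, LT-CML 2 and ST-CML. Its log2 fold change was -1.25 (SE 0.18, adjusted p = 0.0151), and -1.38 with an adjusted p of 0.0562 without LT-HSC 2 and LT-CML 2. Among LT cells alone Cbfa2t2 was at -1.18 (SE 0.23) and did not pass (adjusted p = 0.0582 by limma).

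Of 25 relatives of the members in the same protein families, 19 could be tested. In LT over KLS- cells 9 rose, led by Gata3 at 2.44 (SE 0.23, adjusted p = 0.000113), and 2 fell, Gata1 and Lmo4, beside the 25.5% and 20.8% of all genes. Gata1 no longer passed there without LT-HSC 2 and LT-CML 2 (adjusted p = 0.0527) or without ST-CML (0.0587). Gata1, which drives erythroid and megakaryocytic differentiation and replaces GATA2 on its sites as those cells mature, rose in LT over ST cells (2.77, SE 0.30, adjusted p = 0.00247, and 0.0388 without ST-CML). The ratio of Gata1 to Gata2 was 0.962 and 0.262 in the LT-HSC libraries, 0.917 and 0.724 in the LT-CML libraries, 0.163 and 0.174 in ST-HSC and ST-CML, 4.11 in the normal KLS- library and 12.6 in the CML one. The balance of these GATA factors was thus lowest in ST cells, above which both LT and KLS- libraries lay. Ets1, a relative of Erg, was the only relative called between CML stem cells and normal HSCs (-0.94, SE 0.16, adjusted p = 0.0269), at 5.22, 5.13 and 4.30 RPKM in normal and 1.8, 1.87 and 2.55 RPKM in CML libraries, and its adjusted p was 0.204 without LT-HSC 2 and LT-CML 2.

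Of 24 other transcription factors of HSCs, 18 rose and 3 fell in LT over KLS- cells (25.5% and 20.8% of all genes), and 17 rose in ST over KLS- cells (21.2% of all genes, and 12 of the 24 without ST-CML) and the other 7 did not pass. The median log2 fold change of the list was 0.92 and 1.08 in these comparisons. Among those that rose in LT cells were Egr1 (3.46, SE 0.35), Mycn (3.22, SE 0.29) and Ndn (3.03, SE 0.26), and the 3 that fell were Gfi1, Ikzf1 and Satb1. Hhex, a homeodomain factor needed for lymphoid progenitors, was the only one of this list called between CML stem cells and normal HSCs. It was 21.6, 22.2 and 30.6 RPKM in normal HSCs and 10.2, 10.2 and 12.6 RPKM in CML stem cells, with a log2 fold change of -1.09 (SE 0.18, adjusted p = 0.0226, and 0.175 without LT-HSC 2 and LT-CML 2).

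Of 18 genes often named as targets of these factors, 10 rose and 4 fell in LT over KLS- cells, beside 25.5% and 20.8% of all genes. Csf1r, which encodes a cytokine receptor of monocytes, fell by 3.78 on the log2 scale (SE 0.18). Pf4 and Itga2b, genes of megakaryocytes, rose in LT over ST cells (4.14, SE 0.24, and 2.30, SE 0.28), and without ST-CML Pf4 still passed and Itga2b did not (adjusted p = 0.0554). In CML stem cells 2 of the 18 fell, where 2.34% of all genes were called, Hhex and Trib2, a pseudokinase gene, which was 1.81, 2.28 and 2.97 RPKM in normal HSCs and 0.299, 0.196 and 0.435 RPKM in CML stem cells (-1.35, SE 0.16, adjusted p = 0.00574, and 0.120 without LT-HSC 2 and LT-CML 2). Among LT cells alone Hhex, Trib2 and Ets1 were at -1.03, -1.29 and -1.12 and passed with all 4 libraries, and none of the 3 passed when any 1 of these was left out (adjusted p from 0.0711 to 0.340). In KLS- cells Trib2 was 4.78 and 4.28 RPKM in normal and CML, which have 1 library each.

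Of 16 factors of committed lineages, 14 could be tested, and 9 fell and 2 rose in LT over KLS- cells (20.8% and 25.5% of all genes), led by Irf8 (-3.89, SE 0.19), Cebpe (-2.15, SE 0.42), Klf1 (-2.10, SE 0.25) and Cebpa (-1.84, SE 0.25). Irf8 and Cebpa act in monocytes and granulocytes, Cebpe in granulocytes and Klf1 in erythroid cells. Between CML stem cells and normal HSCs the median log2 fold change of this list was -0.01, beside -0.04 over all genes. The median was -0.74 between LT and KLS- cells, where that of the 9 members was 1.92.

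**Figure D5:**
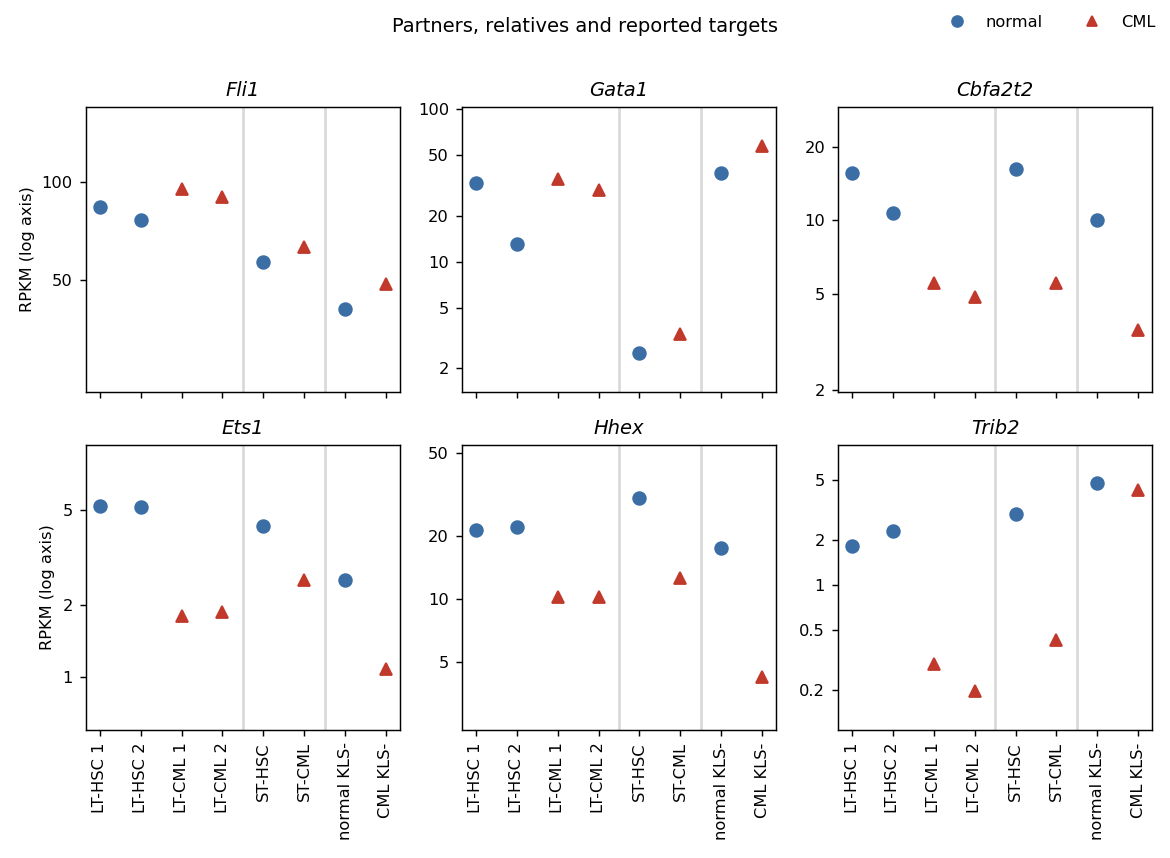
Level in RPKM (log axis, with its own range in each panel) of 6 genes from the lists of partners, relatives, other HSC factors and targets in the 8 libraries, 1 point per library, with circles for normal and triangles for CML cells and grey lines between the LT, ST and KLS- libraries. Fli1 forms 3 steps from LT to ST to KLS- cells, Gata1 is lowest in ST cells, and the CML stem cell points of Cbfa2t2, Ets1, Hhex and Trib2 lie below all normal HSC points.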

How the data were processed

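RNA of the sorted cells was amplified with an oligo-dT based low-input kit and sequenced on an Illumina instrument, and reads were aligned to mm9 and quantified per gene in SeqNova CS by the authors, who deposited RPKM values. The annotation and the counting rule are not given in the sources used here. Depth is an estimate from the steps of low RPKM values and GENCODE M1 exon lengths, since 68.7% of 4324 low genes lay on whole multiples within a relative tolerance of 0.02, too few to recover counts. Depth was scaled with all exonic bases of a gene, whereas the estimated reads of the members used the longest transcript. These lengths were 10581 and 5692 bases for Mecom and 7394 and 3428 for Meis1. The estimated reads and the intervals from them depend on this choice.

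Of 20207 genes, the 12561 whose 8 values summed to more than 1 RPKM were kept, and log2(RPKM + 1) was tested with limma 3.58.1 (trend, R 4.3.3), with Benjamini-Hochberg adjustment over all 12561 and a threshold of 0.05. CML stem cells were compared with normal HSCs as 3 against 3 libraries, with LT and ST libraries pooled and no term for population. LT-CML was compared with LT-HSC, and the CML difference between populations, in a fit of 6 groups with 2 residual degrees of freedom. Populations were compared with diagnosis as a second term, with 4. Read ratios with intervals used SciPy 1.17.1. All 9 members are named in each comparison. The members and all gene lists were chosen with earlier results of these data known. The lists are complex partners, relatives, other HSC factors, targets, committed lineage factors and cell type markers. Of each list up to 4 called genes with the largest absolute log2 fold changes could be named, and for each member the 3 genes with the highest correlation among genes with a mean of at least 5 RPKM. Alternatives changed the pseudocount, filter, scaling, trend and libraries. Some also changed the fit itself: population as a covariate for CML stem cells, the 4 LT libraries alone for LT cells, and a fit of 6 groups for populations. Some listed genes entered the counts and medians but are not reported here by name.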

Additional observations from a re-analysis of the deposited data

How the results depend on the processing

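Of 900 values of the 9 members under other settings, 864 kept their side of the threshold, 30 fell short of it and 6 passed it. The sign differed from the reported one in 30 values, all below the threshold on both sides, spread over 15 pairs of gene and comparison. The members called in LT against KLS- cells numbered 9 under every setting. For the CML difference in KLS- or in ST minus LT cells, 0 members were called under every setting. Between CML stem cells and normal HSCs 1 member was called, and 0 without the filter on low values, with upper-quartile scaling or without LT-HSC 2 and LT-CML 2 (a setting chosen after seeing the data), with a range of 0 to 1 when 1 library was left out. Among LT cells 1 was called, and 0 with a pseudocount of 0.1, without the filter, with quantile normalization or with upper-quartile scaling, and 0 whichever library was left out. Between LT and ST cells 1 was called, 0 without the filter, and 0 to 2 with 1 library left out, and between ST and KLS- cells 8 were called, and 5 to 9. The cause of these changes was not tested, except that the fits without a library have fewer samples. In CML stem cells the sign of the uncalled values turned within Hlf (-0.64 to 0.12), Lmo2 (-0.63 to 0.19), Tal1 (-0.27 to 0.13) and Gata2 (-0.39 to 0.42).

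Over all genes 294 were called between CML stem cells and normal HSCs, 115 to 217 with 1 library left out, and 38 to 543 under the other settings. The 543 came from the fit with population as a covariate. Among LT cells the counts were 217, 6 to 74, and 0 to 248 (0 by limma without the filter). Between LT and ST cells they were 612, 110 to 718 and 127 to 790, between LT and KLS- cells 5823, 2879 to 5574 and 4580 to 6105, and between ST and KLS- cells 5021, 2511 to 5586 and 3787 to 5863. For the CML difference in KLS- or in ST minus LT cells 3 were called in each, 0 in each with 1 library left out, and up to 59 and 407. Where 1 library of a group was left, it was assumed to vary like the others. No paired analysis was possible because the labels tie no normal library to a CML library by a shared mouse, batch, day or replicate number.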

Other observations

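Mycn, a MYC family gene that is active in HSCs and was listed among the other HSC factors, was higher in all 3 CML stem cell libraries (23.8 RPKM in LT-CML 1, 12.5 in LT-CML 2 and 12.1 in ST-CML) than in the 3 normal HSC libraries (8.63 in each LT-HSC library and 6.00 in ST-HSC). Its log2 fold change was 0.92 (SE 0.27) and did not pass the test (adjusted p = 0.187 by limma). The share of all genes that were higher in every CML stem cell library was not counted. In the other direction, every CML stem cell library lay below every normal HSC library for 11.4% of all genes. In KLS- cells Mycn was 0.494 and 0.368 RPKM in normal and CML cells, close to the low levels of Mecom there.

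Among LT cells Flt3, which encodes CD135 and was gated as negative, was higher in both CML libraries, at 11.9 and 19.2 RPKM against 3.95 and 2.52 RPKM (log2 fold change 1.95, SE 0.28, adjusted p = 0.0185). It did not pass when any 1 of the 4 libraries was left out (adjusted p from 0.0618 to 0.237). Slamf1, which encodes the CD150 used to gate LT cells, was 14.3 and 10.7 RPKM in normal and 35.5 and 25.4 RPKM in CML libraries (1.21, SE 0.25, adjusted p = 0.0652). Satb1, a factor of lymphoid priming, rose in ST over LT cells (LT over ST log2 fold change -1.61, SE 0.20, adjusted p = 0.00430, and 0.0297 without ST-CML), from 0.523 to 0.842 RPKM in the LT libraries to 5.18 and 3.05 RPKM in the ST libraries, where Hlf was also highest.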
